A study of Homo sapiens with 6 samples.

Results

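The Hedgehog pathway core and its GLI factors were examined in A2780 cells, a human ovarian cancer cell line. The 9 members were GLI1, GLI2, GLI3, PTCH1, SMO, SUFU, HHIP, SHH and CSNK1E, taken by their names from the 44591 genes listed for each library. All 9 were listed. There were 3 libraries of untreated cells and 3 of cells treated with recombinant human CRMP2 (r-CRMP2) at 40 ng/ml, all labelled 48 h and wild type. The cells were grown in DMEM with serum, in which r-CRMP2 was given. The comparison asks which signaling genes differ in cells given r-CRMP2, a microtubule-associated protein that the study found in the medium of cancer-associated fibroblasts. The model is a single cell line, and the labels do not say whether the 3 libraries of a group came from separate cultures on separate days, so p-values measure only the spread between these libraries.

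In the Hedgehog pathway, a secreted ligand such as Sonic hedgehog binds the receptor Patched, which otherwise holds back the membrane protein Smoothened. Released Smoothened acts at the primary cilium, where SUFU and several kinases keep the GLI transcription factors in check. GLI2 and GLI3 are cut into repressors when the pathway is off and act on targets when it is on, and GLI1 and PTCH1 are themselves target genes that are widely read as a sign of pathway output. Casein kinase 1 epsilon, the product of CSNK1E, phosphorylates pathway proteins and has other roles in Wnt signaling and the circadian clock.

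Between 21888530 and 25711353 counts were available per library. The test was edgeR's quasi-likelihood test across the 16222 genes that passed a filter on low counts, with Benjamini-Hochberg adjustment over all of them. "Rose" and "fell" are used for an adjusted p under 0.05, and "called" for genes that also changed by more than 1 on the log2 scale. Levels are in CPM, counts scaled to a common library total after TMM, or in CPM per kb of the deposited gene length where genes are compared with each other. The scaling matters here, because the median log2 fold change of all genes tested was -0.03 with TMM and -0.34 with the library total alone. Of 8 markers fixed for an ovarian epithelial line, KRT7, KRT8 and KRT18 were abundant, MUC16 was at 42.7 CPM in untreated and 33.2 CPM in r-CRMP2 cells, PAX8 and EPCAM were low and WT1 and CDH1 were under 1 CPM in every library. In this list KRT18 rose, KRT7 and MUC16 fell, and the sum lay between 3190 and 3266 CPM in untreated and between 3203 and 3468 CPM in r-CRMP2 libraries. Of 11 fibroblast genes, 4 rose and 3 fell, among the latter COL1A1, and their summed level was between 613 and 686 CPM in untreated and between 538 and 562 CPM in r-CRMP2 libraries, while FAP stayed under 1 CPM. Of 6 leukocyte genes, 4 (PTPRC, CD3E, CD14 and LYZ) stayed under 1 CPM and CD68 rose, and the sum lay between 23.7 and 28.1 CPM in untreated and between 73.8 and 80.5 CPM in r-CRMP2 libraries. Of 4 endothelial genes, CDH5 fell and the sum lay between 6.48 and 7.06 CPM in untreated and between 1.82 and 2.35 CPM in r-CRMP2 libraries. The part of these markers in the results below was not tested.

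Of the 9 members, 6 passed the filter on low counts. CSNK1E and PTCH1 rose, GLI1, GLI2 and SUFU fell, and GLI3 did not pass the test. Among all genes tested 28.2% rose and 30.1% fell, 58.2% together, so 2 and 3 of 6 members are not a result about the members as a group. For CSNK1E all treated libraries lay above all untreated ones, and for GLI1, GLI2 and SUFU below, whereas the groups overlapped for PTCH1 and GLI3. Such a lack of overlap held for 30.9% of all genes tested in the higher and 33.3% in the lower direction, or 64.2% together. CSNK1E was called upregulated and GLI1 downregulated, 1 of 6 in each direction, against 5.12% and 8.86% of all genes tested. GLI1 passed the filter only through its level in untreated cells. With at least 10 counts required in every sample it was not tested, and 0 members were called downregulated. The median log2 fold change of the 6 members was -0.35, beside -0.03 for all genes tested. SMO, SHH and HHIP were too low to be tested.

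**Figure D1:**
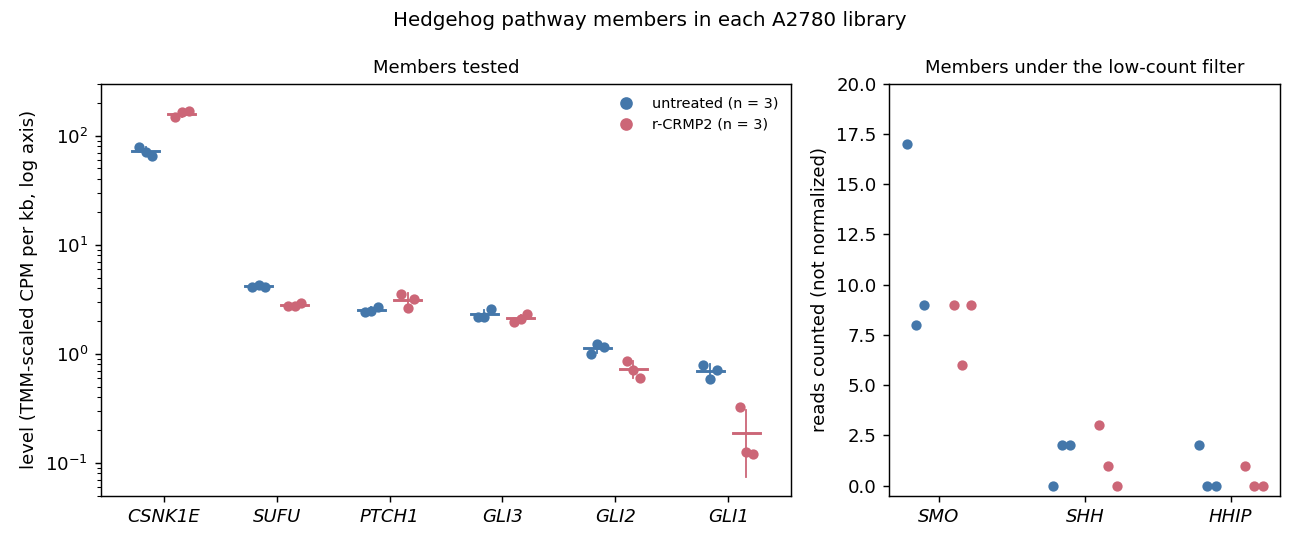
Left, the level of the 6 tested members in each library in TMM-scaled CPM per kb on a log axis; right, the reads counted for the 3 members under the low-count filter. Points are libraries, horizontal lines are group means and vertical lines are SD (n = 3). CSNK1E stands far above the other members in both groups, and the r-CRMP2 points of SUFU, GLI2 and GLI1 lie below all untreated points.

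Measured per length, CSNK1E was the most abundant member in untreated cells, with 71.7 ± 7.16 CPM per kb (SD, n = 3). SUFU followed at 4.16 ± 0.0857, PTCH1 at 2.53 ± 0.144, GLI3 at 2.31 ± 0.216, GLI2 at 1.13 ± 0.120 and GLI1 at 0.695 ± 0.105 CPM per kb (SD, n = 3 for each). SMO was at 0.113 ± 0.0438, SHH at 0.0179 ± 0.0156 and HHIP at 0.00674 ± 0.0117 CPM per kb (SD, n = 3 for each). The ranges of PTCH1 and GLI3 overlapped, as did those of SHH and HHIP, and all other neighbours in this order were apart in the 3 untreated libraries. With r-CRMP2 the order was the same except that PTCH1 (3.11 ± 0.483 CPM per kb) stood above SUFU (2.79 ± 0.104 CPM per kb, SD, n = 3 for each), and the ranges of these 2 genes overlapped, as did those of SHH and HHIP.

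The ligand, its decoy receptor and Smoothened were at or near the lower limit of these libraries. SHH, which encodes the Sonic hedgehog ligand (chromosome 7, 155592678 to 155604967 in the deposited coordinates, hg19 per the submitters' processing notes), had 0, 2 and 2 reads in untreated replicates 1, 2 and 3 and 3, 1 and 0 reads in r-CRMP2 replicates 1, 2 and 3. Summed over a group this was 4 reads each, or 0.0558 CPM of the unscaled library totals in untreated cells (95% exact Poisson interval 0.0152 to 0.143) and 0.0560 CPM with r-CRMP2 (0.0153 to 0.143). These intervals cover counting error only. The other ligand genes were also low, with 4 and 1 reads for IHH and 19 and 30 reads for DHH, summed over the untreated and the r-CRMP2 libraries.

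HHIP, whose product binds and sequesters Hedgehog ligands and which is also a target gene (chromosome 4, 145567148 to 145659881), had 2, 0 and 0 reads in untreated and 1, 0 and 0 reads in r-CRMP2 libraries. This allows at most 0.101 CPM of the unscaled library totals in untreated cells and 0.0780 CPM with r-CRMP2 (upper ends of the 95% exact Poisson intervals). SMO, the gene of Smoothened (chromosome 7, 128828713 to 128853386), was detected with 17, 8 and 9 reads in untreated and 9, 6 and 9 reads in r-CRMP2 libraries. The groups overlapped, and a difference between them was not detectable at this depth. In a fit without the low-count filter, its log2 fold change was -0.19 (edgeR, adjusted p = 0.847). The antisense gene listed across the end of SMO had no reads in any library.

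The 3 GLI factors differed in how much they changed. GLI1, the activator that is also a target of the pathway (chromosome 12, 57853918 to 57866051), was counted with 80, 52 and 70 reads in untreated replicates 1, 2 and 3. In r-CRMP2 replicates 1, 2 and 3 it was counted with 25, 9 and 10 reads. All 3 treated libraries were below all 3 untreated ones, and the treated libraries differed more among themselves, with r-CRMP2 replicate 1 above the other two. The mean level was 2.52 ± 0.380 CPM in untreated cells and 0.687 ± 0.419 CPM with r-CRMP2 (SD, n = 3 in each group). The log2 fold change was -1.87 (standard error 0.43, edgeR, adjusted p = 6.97e-05), which is 3.66 times less. It became -2.48 without r-CRMP2 replicate 1. The filter's limit was 0.420 CPM of the unscaled library totals. GLI1 reached it in 3 untreated libraries and in 1 r-CRMP2 library, so this gene was tested because of its level in untreated cells. The last 14 bases of GLI1 overlap ARHGAP9 on the opposite strand, which had between 2 and 9 reads per library.

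GLI2, the main activator downstream of Smoothened (chromosome 2, 121554867 to 121750229), had levels of 6.76, 8.35 and 7.82 CPM in untreated replicates 1, 2 and 3. With r-CRMP2 the levels were 5.85, 4.85 and 4.09 CPM, all below the untreated range. The change in GLI2 was -0.63 on the log2 scale (standard error 0.17, edgeR, adjusted p = 0.00163), short of the threshold for a call. GLI3, the main source of the repressor form (chromosome 7, 42000547 to 42276618), had levels of 17.9, 18.0 and 21.0 CPM in untreated and 16.2, 17.3 and 18.9 CPM in r-CRMP2 libraries. The groups overlapped for GLI3, and its log2 fold change of -0.12 (standard error 0.10, edgeR, adjusted p = 0.298) did not pass. With the library total alone as the scale it was -0.43 and passed (edgeR, adjusted p = 0.00109).

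Because a ratio of 2 genes within a library does not depend on the scaling, 6 such ratios were compared with an exact permutation test over the 6 libraries (two-sided), in which 3 against 3 libraries cannot go below p = 0.1. The log2 ratio of GLI1 to GLI3 was -2.88 ± 0.241 in untreated and -4.61 ± 0.809 in r-CRMP2 libraries (SD, n = 3 in each group), a difference of -1.73 (standard error 0.49, exact permutation p = 0.1, adjusted p = 0.12 over 6 ratios). The ratio of GLI1 to GLI2 differed by -1.22 (standard error 0.35) and that of GLI2 to GLI3 by -0.51 (standard error 0.23), each with the same p-values. For all 3 ratios the groups did not overlap, so GLI1 was lower relative to GLI2 and GLI3, and GLI2 relative to GLI3, in every r-CRMP2 library than in any untreated library. For GLI2 to GLI3 the groups nearly touched, with -1.42 in untreated replicate 3 and -1.45 in r-CRMP2 replicate 1. The levels of 64.2% of all genes tested did not overlap between the groups either. No share over other pairs of genes was computed, so this is not a result particular to the GLI factors. Of the summed GLI level per length, GLI1 made up at least 14.6% of it in each untreated library and 10.2%, 4.26% and 3.98% of it in r-CRMP2 replicates 1, 2 and 3. The share of GLI3 ranged from 54.7% to 57.9% without r-CRMP2 and from 62.3% to 76.0% with it. These shares were computed after the levels were seen.

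**Figure D2:**
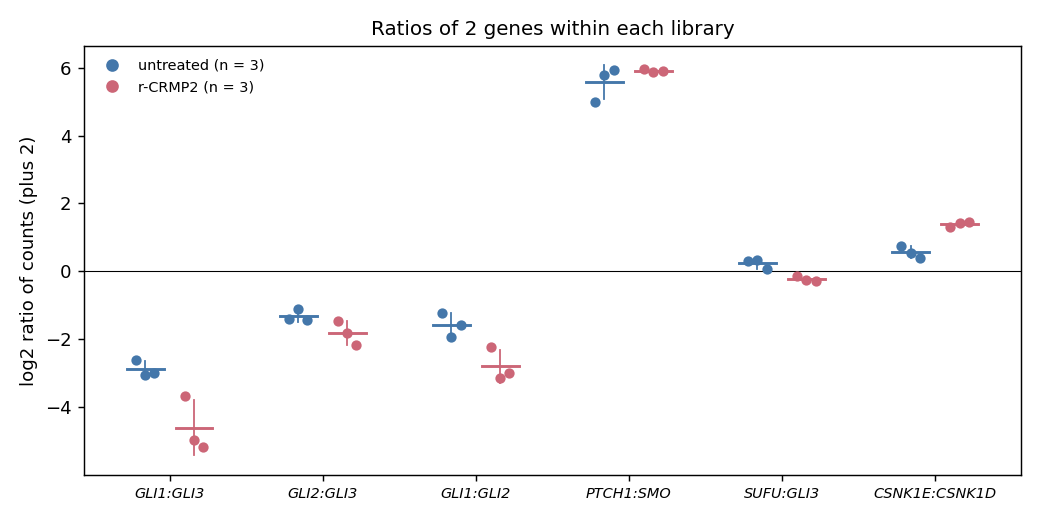
The log2 ratio of the counts (plus 2) of 2 genes within each library, for 6 pairs of genes. Points are libraries, horizontal lines are group means and vertical lines are SD (n = 3). The groups do not overlap for any ratio except PTCH1 to SMO. For single genes, the levels of 64.2% of all genes tested did not overlap between the groups.

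SUFU, the cytoplasmic inhibitor that holds GLI proteins out of the nucleus (chromosome 10, 104263719 to 104393214), fell. Its level was 22.1, 22.7 and 21.9 CPM in untreated replicates 1, 2 and 3, and 14.6, 14.6 and 15.5 CPM in r-CRMP2 replicates 1, 2 and 3. The replicates of SUFU lay closer together than those of the other members tested, and the groups were far apart. On the log2 scale the change was -0.58 (standard error 0.04, edgeR, adjusted p = 1.26e-05), or 1.49 times less. The log2 ratio of SUFU to GLI3 moved from 0.23 ± 0.153 to -0.22 ± 0.0696 (SD, n = 3 in each group), a difference of -0.45 (standard error 0.10, exact permutation p = 0.1, adjusted p = 0.12).

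PTCH1, the ligand receptor and a target gene (chromosome 9, 98205264 to 98279247), rose slightly, and only under some settings. Its level was 21.7, 22.4 and 24.2 CPM in untreated replicates 1, 2 and 3 and 32.1, 23.5 and 28.5 CPM in r-CRMP2 replicates 1, 2 and 3. The lowest treated library, replicate 2, lay within the untreated range, and replicate 1 was the highest. The rise of PTCH1 was 0.30 on the log2 scale (standard error 0.14, edgeR, adjusted p = 0.014). It no longer passed without r-CRMP2 replicate 1 (0.21, edgeR, adjusted p = 0.0864) and without untreated replicate 1 (0.27, edgeR, adjusted p = 0.0551), and it was -0.01 (edgeR, adjusted p = 0.955) with the library total alone. The log2 ratio of PTCH1 to SMO overlapped between the groups, with means of 5.57 and 5.91, a difference of 0.34 (standard error 0.29, n = 3 in each group, exact permutation p = 0.3, adjusted p = 0.3). Of 4 antisense genes listed inside PTCH1, LOC100507346 had the most reads, with 2.25 ± 0.185 and 2.84 ± 0.391 CPM (SD, n = 3 in each group, log2 fold change 0.33, edgeR, adjusted p = 0.187). Strand use in counting is not given in the sources used here, so reads of PTCH1 and these genes cannot be told apart where they overlap.

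The promoter windows of RefSeq (GRCh38.p14, 250 bases before to 50 after each start) were searched for the letters TGGGTGGTC and their reverse complement GACCACCCA, the textbook binding sequence of the GLI factors. Windows were at hand for 7 of the 9 members, all except GLI1 and GLI3. Of the 100 names of the wider list described below, 74 had a window, and the others were not searched. The sequence was found in 83 of 35116 windows (0.236%), and among the 116 windows of the wider list it was found in 1, at PTCH1. That window belongs to 1 of 5 PTCH1 starts, and the libraries do not show which start was in use. Its 250 upstream bases (chr9:95509267-95509516, minus strand, inside a PTCH1 intron of the GENCODE annotation) are shown. PTCH1 is a target gene and the one gene with a match among the list genes that had a window. The match stands in capitals, starting 172 bases before the transcript start.
PTCH1: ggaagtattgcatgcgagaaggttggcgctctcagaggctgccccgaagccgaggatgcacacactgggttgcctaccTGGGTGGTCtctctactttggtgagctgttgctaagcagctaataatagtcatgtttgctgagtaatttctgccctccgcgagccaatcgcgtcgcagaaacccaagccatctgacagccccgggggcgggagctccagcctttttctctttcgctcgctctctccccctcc
The match is a description of the letters in this window and not a measured site.

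CSNK1E (chromosome 22, 38686697 to 38714089) rose the most of the members. Its level was 230, 204 and 189 CPM in untreated replicates 1, 2 and 3 and 429, 472 and 482 CPM in r-CRMP2 replicates 1, 2 and 3, with no overlap between the groups. The log2 fold change was 1.15 (standard error 0.10, edgeR, adjusted p = 1.91e-10), or 2.22 times more. With the library total alone it was 0.84 (edgeR, adjusted p = 9.32e-09), past the p-value threshold and short of a call. The log2 ratio of CSNK1E to CSNK1D, its closest relative, was 0.56 ± 0.167 in untreated and 1.40 ± 0.0750 in r-CRMP2 libraries (SD, n = 3 in each group), a difference of 0.83 (standard error 0.11, exact permutation p = 0.1, adjusted p = 0.12).

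The counts of CSNK1E cannot be assigned to this gene alone. The readthrough gene LOC400927-CSNK1E is listed on the same strand across all of it. It had between 94.1% and 95.7% as many reads as CSNK1E in untreated libraries and between 96.1% and 97.4% in r-CRMP2 libraries. It had 197 ± 20.8 CPM in untreated and 447 ± 24.9 CPM in treated cells (SD, n = 3 for both) and rose by 1.18 on the log2 scale (edgeR, adjusted p = 1.54e-10). Between 213 and 435 reads per library separated the 2 entries. After scaling this was 10.68, 8.68 and 11.15 CPM in untreated replicates 1, 2 and 3. In r-CRMP2 replicates 1, 2 and 3 it was 11.37, 13.04 and 18.94 CPM. In proportion, this remainder differed less between the groups than either entry did, and it was not tested. How reads on shared exons were counted is not given in the sources used here.

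Among the other casein kinase 1 genes, CSNK1A1 rose by a log2 fold change of 0.48, CSNK1D by 0.32, CSNK1G2 by 0.24 and CSNK1G3 by 0.20, and CSNK1G1 had -0.39 and fell (edgeR, highest adjusted p = 0.0265). With the library total alone, CSNK1D (0.01), CSNK1G2 (-0.07) and CSNK1G3 (-0.11) no longer passed and the latter 2 changed sign, while CSNK1A1 (0.17) and CSNK1G1 (-0.70) passed. Per length, CSNK1G2 was the most abundant of these genes in untreated cells, with 80.9 CPM per kb beside 71.7 for CSNK1E, and the order was reversed with r-CRMP2, with 95.3 and 159.5 CPM per kb.

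**Figure D3:**
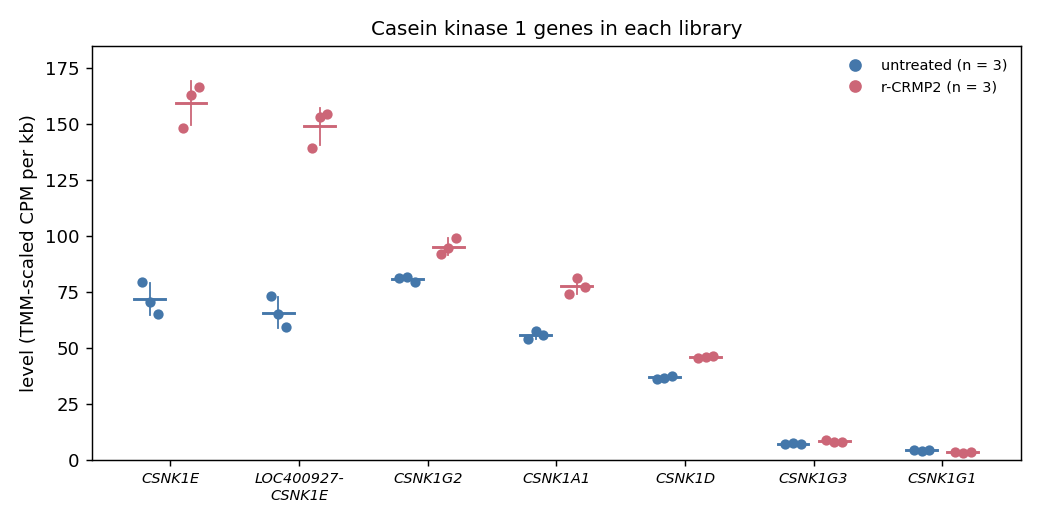
The level of 6 casein kinase 1 genes and of the readthrough gene in each library, in TMM-scaled CPM per kb from 0. Points are libraries, horizontal lines are group means and vertical lines are SD (n = 3). CSNK1E and LOC400927-CSNK1E move together, and the other genes differ less between the groups.

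**Figure D4:**
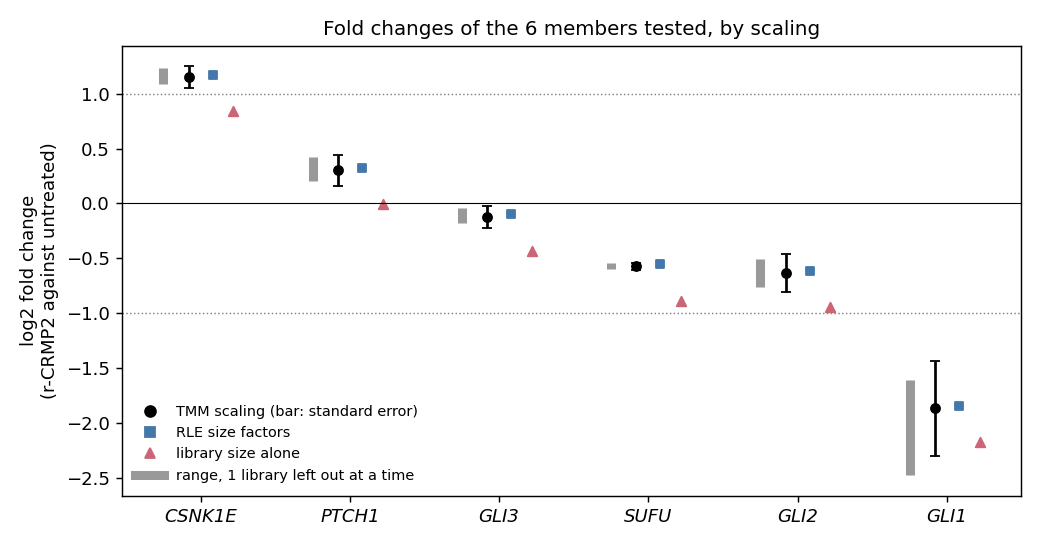
The log2 fold change of the 6 members tested under TMM scaling (black, bars are standard errors), RLE size factors (squares) and the library total alone (triangles), with the range over 6 fits that each left out 1 library (grey bars). Dotted lines mark the threshold of 1 in either direction. GLI1, GLI2 and SUFU stay below 0 and CSNK1E above 0 under all of these, and PTCH1 reaches 0 with the library total alone.

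The other genes of the pathway were taken from a list of 100 names that includes the members, of which 99 were listed and 81 tested. Of the 81, 26 rose (32.1%) and 28 fell (34.6%), near the 28.2% and 30.1% of all genes tested. Past both thresholds, 2 were upregulated (CSNK1E and GLIS1) and 9 downregulated, among them GLI1, DISP1, GAS1, GPR161, ARRB1, BTRC and CCND1. The share of genes called in either direction was 14.0% over all genes tested. With the library total alone, 9 of the 81 rose and 44 fell, against 13.4% and 52.1% of all genes tested.

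Among 5 tested genes of ligand production and release, DISP1, which releases the lipid-modified ligand from the cell, fell. Its level per length was 3.03 CPM per kb in untreated cells and 0.846 with r-CRMP2, with a log2 fold change of -1.84 (standard error 0.16, edgeR, adjusted p = 1.52e-09). SCUBE1 was below DISP1 in untreated cells (1.99 CPM per kb), was the most abundant of these genes with r-CRMP2 (3.61 CPM per kb) and rose by 0.86 on the log2 scale (edgeR, adjusted p = 2.67e-06).

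The receptor side changed in both directions. GAS1, a coreceptor that helps ligand bind Patched and the most abundant gene of this role, fell from 56.8 to 25.1 CPM per kb, a log2 fold change of -1.18 (standard error 0.14, edgeR, adjusted p = 1.67e-09). The coreceptor gene BOC also fell (-0.47, edgeR, adjusted p = 0.0234), and the coreceptor gene CDON rose (0.52, edgeR, adjusted p = 5.47e-06).

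Of 20 tested genes of the ciliary route, 10 fell and INTU rose, beside 30.1% and 28.2% of all genes tested, and the median log2 fold change was -0.29, beside -0.03 for all genes tested. GPR161, a ciliary receptor that keeps the pathway off through cAMP, was among them (-1.44, standard error 0.09, edgeR, adjusted p = 4.81e-09). Genes of intraflagellar transport, which carries pathway proteins in the cilium, gave -0.69 for IFT80 and -0.68 for IFT88 (edgeR, adjusted p = 5.19e-05 and 0.0205). In contrast, IFT27, IFT122, IFT140 and IFT172 did not pass (-0.06, 0.06, 0.09 and -0.13). MGRN1 had 9.99 CPM per kb in untreated cells, just below TULP3 (10.2) and KIF7 (10.2), and was the most abundant of this role with r-CRMP2 (11.1 CPM per kb). It had a log2 fold change of 0.16 (edgeR, adjusted p = 0.0535), which was -0.15 with the library total alone. MGRN1 passed with RLE size factors (0.18, edgeR, adjusted p = 0.0324) and with DESeq2 (0.18, DESeq2, adjusted p = 0.0418). With RLE size factors 9 of the 20 fell and 2 rose, beside 28.9% and 29.3% of all genes tested, and with DESeq2 8 fell and 2 rose, beside 26.8% and 28.1%. With the library total alone 16 fell and 0 rose, where 52.1% of all genes tested fell and 13.4% rose.

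Among 19 tested kinases and their scaffolds, 9 rose and 6 fell with TMM, beside 28.2% and 30.1% of all genes tested, but with the library total alone the balance turned to 2 that rose and 10 that fell, beside 13.4% and 52.1%. ARRB1, a beta-arrestin that moves with Smoothened, fell (log2 fold change -1.44, standard error 0.17, edgeR, adjusted p = 1.08e-09), and PRKACB, a catalytic subunit of protein kinase A, fell by 0.69 (edgeR, adjusted p = 1.69e-05), while PRKACA had a log2 fold change of 0.04 (edgeR, adjusted p = 0.645). Among 21 tested GLI factors and regulators, 9 rose and 5 fell with TMM, and with the library total alone this too turned, to 3 and 9, beside the same shares of all genes. BTRC, the ubiquitin ligase adaptor that directs the cutting of GLI3, fell (-1.25, standard error 0.12, edgeR, adjusted p = 1.68e-08), and its relative FBXW11 rose by 0.30 with TMM (edgeR, adjusted p = 0.000402) and had -0.01 with the library total alone. SKP1, a subunit of the same ligase and the most abundant gene of this role, had a log2 fold change of 0.24 with TMM (edgeR, adjusted p = 0.00662) and -0.07 with the library total alone. GLIS1, a zinc-finger factor related to the GLI family, rose from 0.914 to 3.45 CPM per kb (log2 fold change 1.92, standard error 0.20, edgeR, adjusted p = 1.71e-08), GLIS2 rose by 0.72 (edgeR, adjusted p = 3.76e-07) and ZIC2 by 0.92 (edgeR, adjusted p = 2.69e-08).

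The textbook target genes changed in both directions. Of 14 tested, 5 rose with TMM (PTCH1, FOXF1, FOXM1, SNAI1 and JAG2) and 5 fell, among them GLI1, BCL2, CCND1 and FOXL1, with a median log2 fold change of -0.08 beside -0.03 for all genes tested. These counts stand beside 28.2% and 30.1% of all genes tested, and with the library total alone 2 rose and 6 fell, beside 13.4% and 52.1%. CCND1, the gene of cyclin D1, had 37.6 CPM per kb in untreated cells and 18.2 with r-CRMP2 (log2 fold change -1.04, standard error 0.07, edgeR, adjusted p = 1.79e-10). SNAI1, a factor of epithelial-mesenchymal transition, rose by 0.86 (edgeR, adjusted p = 2.74e-08), and BCL2, a survival gene, fell by 0.80 (edgeR, adjusted p = 3.68e-05). FOXM1 was just below CCND1 in untreated cells (35.7 CPM per kb) and was the most abundant of these genes with r-CRMP2 (42.0 CPM per kb). It rose by 0.24 with TMM (edgeR, adjusted p = 0.00227) and had -0.07 with the library total alone, where FOXF1 and PTCH1 had no rise either (-0.07 and -0.01).

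**Figure D5:**
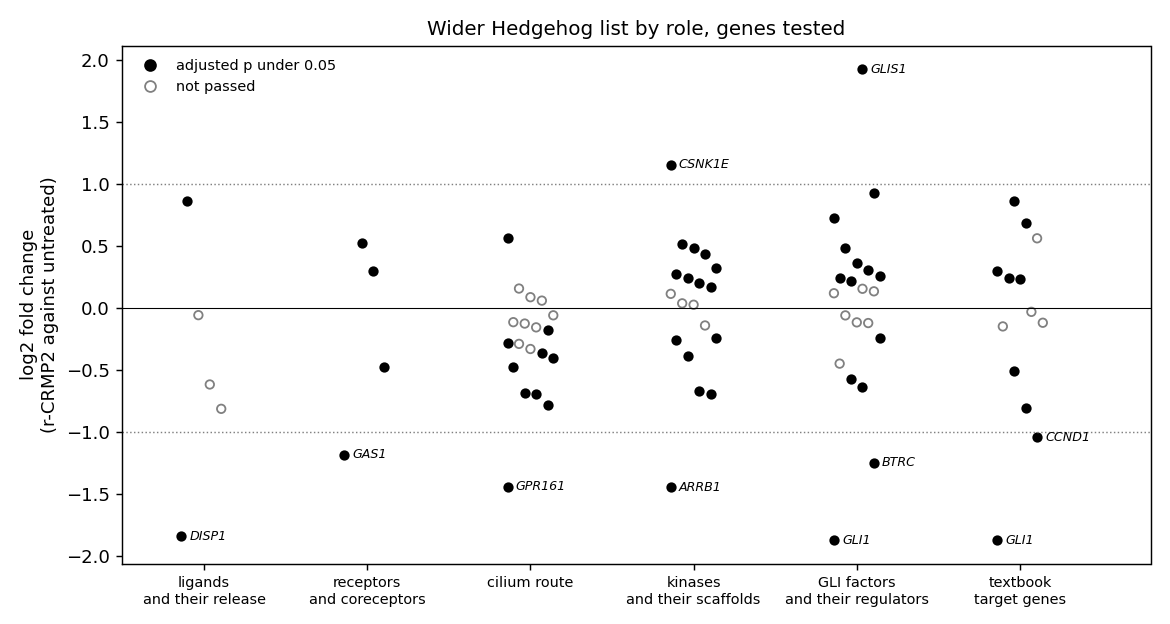
The log2 fold change of the tested genes of the wider Hedgehog list by role, leaving out 2 genes that are not reported here, with genes past the adjusted p threshold filled. Dotted lines mark 1 in either direction, points past both thresholds are named, and a gene with 2 roles appears in both columns; in the ciliary route 1 filled point, INTU, lies above 0 and the others lie below.

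By the distance between their centred log2 CPM over the 6 libraries, the genes most like GLI1 among 14132 compared were ZNF81 (distance 0.406, log2 fold change -1.84), MYH3 (0.429, -1.60) and FRAT1 (0.471, -2.02). Those most like CSNK1E were its readthrough entry LOC400927-CSNK1E (distance 0.0411), TUBGCP2 (0.0547, log2 fold change 1.14) and ARHGAP19 (0.0736, 1.18). These are descriptions over 6 libraries in 2 groups, and the difference between the groups is the main part of each profile.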

How the data were processed

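Poly(A)-selected RNA of A2780 cells was sequenced in 6 libraries. The submitters' processing notes name HISAT2, FastQC, DESeq2 and hg19, and the counting tool, annotation and strand setting are not given in the sources used here. The authors deposited raw counts per gene, which were used here, and TPM values, which were not used. Groups follow the treatment label. Members, lists and tests were chosen with earlier results of these data known.

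Counts were tested in R 4.3.3 with edgeR 4.0.16, which uses limma 3.58.1, after its TMM scaling and low-count filter, with thresholds from the study's methods (adjusted p 0.05, log2 fold change 1). Standard errors come from replicate log2 CPM with a prior count of 2. Named genes are the members, the list genes past both thresholds, the gene of highest level per length in each role over all 6 libraries, the 3 nearest profiles of GLI1 and CSNK1E and genes overlapping a member. Some list genes are counted but not reported here by name. Further list genes were named after their values were seen, to fill out their role. The other settings tried were library size alone, RLE size factors, DESeq2 1.42.0, no filter, at least 10 counts per sample, no fold threshold, a test against a fold of 2, 0.5 in place of 2 added to the counts in ratios, the replicate block and leaving out each library. The test was checked on simulated counts. Replicates of a group differed by more than sampling noise (chi-square at least 3.62 per degree of freedom), so none was the same library counted again. This cannot tell whether the libraries of a group came from separate cultures. MOSMO was not found under that name.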

Additional observations from a re-analysis of the deposited data

How the results depend on the processing

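With library size alone, no member was called upregulated (0, against 1), because CSNK1E gave 0.84. Of the wider list, 1 gene was upregulated (against 2) and 12 were downregulated (against 9). PTCH1 gave -0.0075 with library size alone, and GLI3 passed the p-value threshold (-0.43). MGRN1 (-0.15), SKP1 (-0.070) and FOXM1 (-0.074) changed sign there. The mean levels moved there by more than 1 SD for GLI2 (1.26 CPM per kb untreated), GLI3 (2.57 untreated, 1.90 with r-CRMP2), PTCH1 (2.81 untreated), SUFU (4.62 and 2.50) and CSNK1E (79.7 and 143.0). Without a fold change threshold, 2 members were upregulated and 3 downregulated, and 26 and 28 genes of the wider list. Tested against a minimum fold of 2, no member was upregulated (0), and 1 and 5 genes of the wider list were called. With at least 10 counts in every sample no member was downregulated (0), because GLI1 was not tested, which its 9 reads in r-CRMP2 replicate 2 set.

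When each library was left out in turn (6 fits), the log2 fold change of GLI1 lay between -2.48 and -1.61, of GLI2 between -0.76 and -0.51, of GLI3 between -0.18 and -0.04, of PTCH1 between 0.21 and 0.42, of SUFU between -0.60 and -0.55 and of CSNK1E between 1.09 and 1.23. The wider list had 2 upregulated and between 7 and 10 downregulated genes there.

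The replicate numbers gave no evident pairing, since libraries that share a number hardly deviated together (correlation of their deviations across genes -0.02 for number 1, 0.0038 for 2 and -0.03 for 3). With the replicate block, GLI1 gave -1.91, GLI2 -0.63, GLI3 -0.12, PTCH1 0.29, SUFU -0.58 and CSNK1E 1.16, with 1 member upregulated and 1 downregulated, and 2 and 9 genes of the wider list. The block changed no call of a member.

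Of 443 values under these alternatives, 412 were graded as the same. For fold changes this meant keeping direction and side of the adjusted p threshold or staying within the spread. The fold change threshold was not part of it, so CSNK1E with library size alone (0.84) was graded as the same although it lost its call. For counts the grade was looser, as it included the shift from 9 to 12 downregulated genes of the wider list. Depth limits GLI1 and SMO most, where a library holds between 6 and 80 reads, and SHH and HHIP could not be compared.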
